A study of Rattus norvegicus with 100 samples.

Results

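This account covers uterus collected 48 h into a uterotrophic assay, in which immature female rats received ethinylestradiol (EE) or served as controls. Its members are the arrays whose labels name the uterus, the 48 h time and either group: 5 EE arrays and 5 control arrays, 10 of the 100 arrays in the series. Ethinylestradiol is a synthetic estrogen that is active by mouth, and the uterotrophic assay is a test-guideline assay that reads estrogenic activity from the growth of the immature uterus. Total RNA of each sample was hybridised to an Affymetrix RAE230A array, which reads a gene through sets of short probes and reports a brightness (intensity) per probe set. The series also holds uterus at 2, 4, 8, 24, 28 and 72 h, with EE and control groups of 5 arrays each, and pituitary gland. Both 48 h groups were intact immature females with no genetic change named. The sources used here do not give strain, age in days, dose, route, dosing schedule or a treatment of the controls. The labels do not say that each array came from its own animal, so the p-values below measure the spread between these samples.

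Estrogen acts in the uterus mainly through estrogen receptor alpha (Esr1), a nuclear receptor that binds DNA at estrogen response elements or reaches genes through other transcription factors. In the immature uterus it first evokes water uptake and an early wave of transcription, then RNA and protein synthesis, a round of epithelial cell division, and differentiation of the epithelium. Part of the epithelial response is relayed by growth factors made in the stroma, among them insulin-like growth factor 1 (Igf1). White blood cells, including macrophages and eosinophils, are known to enter the estrogen-exposed uterus.

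The arrays within a group were alike. Pearson correlations across 6306 genes ran from 0.975 to 0.990 between arrays of one group and from 0.869 to 0.932 between arrays of different groups, as a description across genes and with no test. Each array gave 9691 to 10557 probe set values out of 15923, and the remaining cells were blank. EE arrays had 37.2% ± 1.83 blank cells (SD, n = 5) and control arrays 34.9% ± 1.44 (SD, n = 5), a difference that a 2-sided exact permutation test put at p = 0.0556. The log2 difference between 3' and 5' control probe sets, which reflects how intact the RNA and its labelled copies were, was 0.248 ± 0.133 for Actb on EE arrays and 0.615 ± 0.180 on control arrays (SD, n = 5 each; exact permutation p = 0.00794, adjusted p = 0.0159 over 4 array measures). For Gapdh it was 0.341 ± 0.0613 against 0.550 ± 0.112 (exact permutation p = 0.00794, adjusted p = 0.0159). The median intensity was 97.9 ± 1.71 on EE arrays and 101 ± 1.36 on control arrays (SD, n = 5 each; exact permutation p = 0.0238, adjusted p = 0.0317). The smallest p that 5 arrays against 5 allow is 0.00794. The part of these array differences in the gene results was not tested. Markers of the uterus were read in both groups, with 8 of 9 myometrium, 12 of 13 stroma and 11 of 11 uterine epithelium markers tested, while the T cell markers Cd3d, Cd3e and Cd3g and the eosinophil markers Prg2 and Ccr3 were blank on all 10 arrays.

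At 48 h most genes measured in the uterus differed between EE and control. Of 6968 genes with at least 3 values in each group, 3978 (57.1%) passed the test (limma moderated test on log2(intensity + 30.4), Benjamini-Hochberg adjusted p under 0.05), 1681 of them higher with EE (24.1%) and 2297 lower (33%). Most differences were small. At least 2-fold changes were seen for 166 genes that rose (2.38%) and 88 that fell (1.26%), and the median difference over all tested genes was -0.049 on the log2 scale. The split between rises and falls depended on scaling: with each array centred on its own median, 2079 genes were higher and 1817 lower, so that higher genes made up 53.4% of calls in place of 42.3%. EE and control values did not overlap for 2811 genes (40.3%), of which 1213 were higher with EE and 1598 lower. Another 62 genes had values on all 5 EE arrays and on no control array, 75 genes had the reverse, and neither kind has a fold. Each gene list count below reads against these shares of all genes tested, 24.1% rising and 33% falling. In these whole-tissue samples, fewer cells of a type and less RNA per cell cannot be told apart.

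The 15 largest rises, taken among genes above the median level whose groups did not overlap, ran from 2.16 for Krt7 to 5.22 for C3 on the log2 scale. Intensities below are given for EE arrays 67, 68, 69, 71 and 72 in that order, and for control arrays 61, 62, 63, 65 and 66. Complement component C3, the central protein of the complement cascade and a long-known estrogen-induced secretion of the rat uterus, read 2627, 2623, 2456, 1486 and 2395 with EE. On control arrays 61, 62 and 66 C3 read 28.7, 38.9 and 26.8, and arrays 63 and 65 were blank. The EE values lay far above every control value, a rise of 5.22 on the log2 scale (SE 0.22, 37.3-fold, adjusted p = 1.16e-22). S100g, the calcium-binding protein calbindin-D9k and a classical estrogen marker of rat uterus, read 1494, 1531, 1624, 1047 and 1579 against 90.7, 95.7, 51.1, 70.6 and 70.0, a rise of 3.81 (SE 0.14, 14.01-fold). Kap, first described as an androgen-regulated kidney protein, read 2121, 2252, 2158, 1947 and 1837 against 248, 139, 66.2, 131 and 137, a rise of 3.66 (SE 0.24, 12.6-fold). Ccl11 is eotaxin, the chemokine that attracts eosinophils. It read 508, 601, 829, 363 and 837 against 43.1, 36.2, 36.8, 26.9 and 33.8, a rise of 3.26 (SE 0.17, 9.61-fold). In C3, S100g and Ccl11 array 71 was the lowest of the EE arrays, and it still lay above all controls.

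The other 11 of the 15 largest rises ran from 2.16 to 2.75. They included the cell adhesion molecule Ceacam1 (2.68, SE 0.13), the keratins Krt19 (2.62), Krt8 (2.23) and Krt7 (2.16), the membrane mucin Muc4 (2.54), the cell-cycle protein Cks2 (2.43), the desmosomal membrane protein Perp (2.30), the matrix protein Spon1 (2.18, SE 0.10), the arginine-synthesis enzyme Ass1 (2.17), the epithelial surface protein Plet1 (2.17) and the cornified envelope protein Sprr1a (2.75, SE 0.45). Groups that do not overlap were part of the rule that chose these 15. It left out Krt10 (3.05) and Krt14 (2.97), which rose by more than Sprr1a but had overlapping groups.

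**Figure D1:**
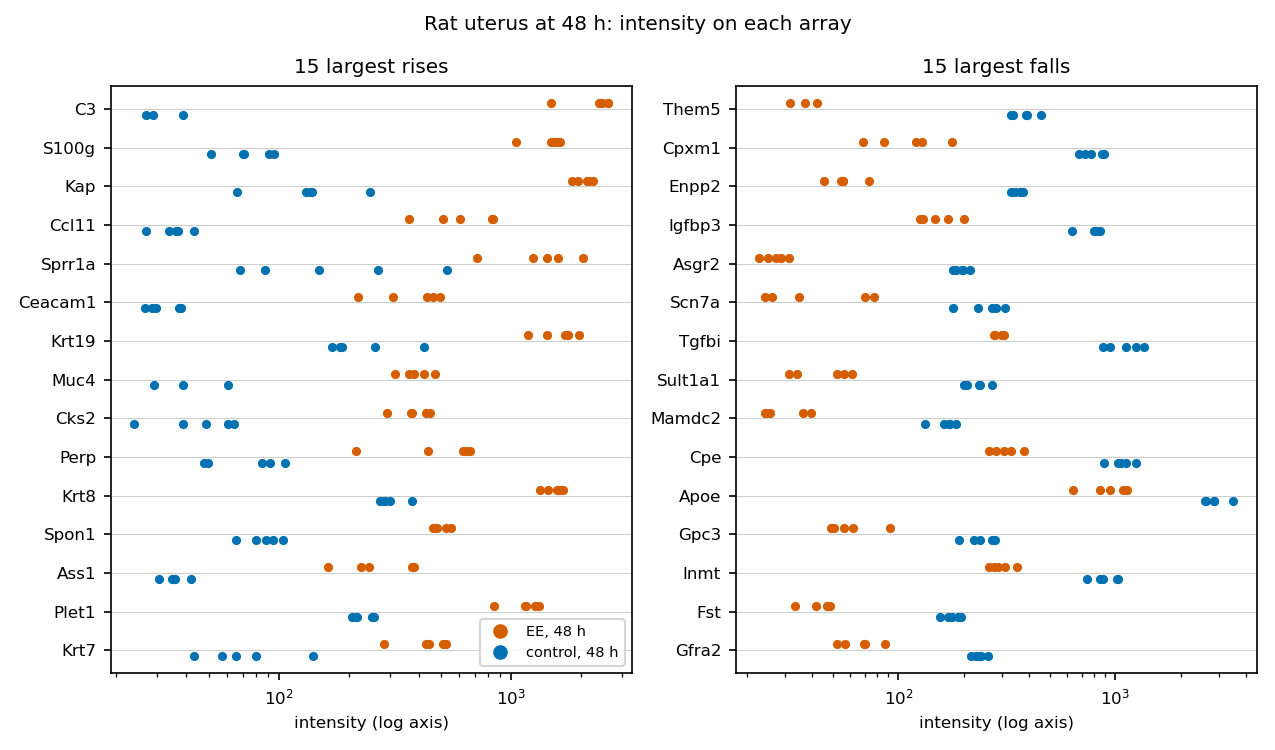
Intensity on each 48 h array (log axis) for the 15 genes with the largest rises and the 15 with the largest falls, with 1 point per array, orange for EE and blue for control, and no point where a cell was blank. The groups are apart in every row, as the selection required, and C3 has 3 control points against 5 EE points.

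Promoters of these genes were compared for estrogen response elements because they moved together. Of the 15 largest rises 10 had an entry in the RefSeq promoter table (build GRCr8), and of the 15 largest falls 11 had one. The full palindromic element, GGTCA and TGACC with 3 bases between them, was found on neither strand in the 250 bases upstream of any of them, and in 8 of all 33469 promoters of the table (0.0239%). Its core motif GGTCA, searched on both strands and contained in the full element, was in 4 of the 10 rises (40%) and 4 of the 11 falls (36.4%). It was in 32.5% of the promoters of all genes tested and in 35.4% of all promoters. The 4 rises that held it are shown, 5' to 3' on the gene's strand and ending at the base before the start site, with the core motif or its reverse complement TGACC in capitals. They are the 250 bases upstream of C3 (chr9:2201340-2201589, minus strand), Cks2 (chr17:13727520-13727769, minus strand), Perp (chr1:15361534-15361783, plus strand) and Plet1 (chr8:59738389-59738638, plus strand).
C3: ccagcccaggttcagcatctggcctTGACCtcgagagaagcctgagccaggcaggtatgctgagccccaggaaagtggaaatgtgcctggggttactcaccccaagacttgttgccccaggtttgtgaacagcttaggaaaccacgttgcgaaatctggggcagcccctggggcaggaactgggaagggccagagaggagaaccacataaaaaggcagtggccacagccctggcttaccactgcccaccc
Cks2: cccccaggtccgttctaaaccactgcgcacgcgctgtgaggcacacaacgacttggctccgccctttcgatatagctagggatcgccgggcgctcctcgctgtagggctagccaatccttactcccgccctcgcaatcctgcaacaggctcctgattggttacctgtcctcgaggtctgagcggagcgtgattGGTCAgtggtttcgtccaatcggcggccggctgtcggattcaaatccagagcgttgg
Perp: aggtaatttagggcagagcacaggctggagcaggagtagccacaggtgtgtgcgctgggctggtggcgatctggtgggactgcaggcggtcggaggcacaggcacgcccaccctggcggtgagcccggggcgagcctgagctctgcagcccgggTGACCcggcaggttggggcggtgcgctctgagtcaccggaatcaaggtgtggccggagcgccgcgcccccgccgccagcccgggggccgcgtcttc
Plet1: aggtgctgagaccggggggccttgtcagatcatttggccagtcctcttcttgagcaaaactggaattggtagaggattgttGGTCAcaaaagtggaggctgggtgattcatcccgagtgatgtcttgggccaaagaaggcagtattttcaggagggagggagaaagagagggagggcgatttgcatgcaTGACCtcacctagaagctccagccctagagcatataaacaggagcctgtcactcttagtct
In C3 the core motif lay at -225 to -221 from the start, on the opposite strand. Cks2 held it at -57 to -53, Perp at -96 to -92 and Plet1 at -169 to -165 and at -61 to -57. These are matches of letters and not measured binding.

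Several epithelial products were read only with EE. Cuzd1, a zona pellucida-like domain protein of secretory epithelia, read 1728, 1842, 1585, 822 and 1523 on the EE arrays and was blank on all control arrays. Mmp7 (matrilysin), a matrix metalloproteinase of glandular epithelium, read 1074, 1068, 1414, 478 and 1147 with EE only. Dmbt1, a mucosal defence protein, read 904, 707, 581, 618 and 816 with EE only. As with C3, array 71 was the lowest of the EE arrays for Cuzd1 and Mmp7. In the controls of all 7 times Cuzd1 and Mmp7 were blank on every array. Cuzd1 averaged 452 ± 119 at 24 h, 613 ± 105 at 28 h, 1500 ± 399 at 48 h and 2215 ± 590 at 72 h on EE arrays (SD, n = 5 each). Mmp7 averaged 154 ± 58.4, 225 ± 41.9, 1036 ± 342 and 2224 ± 488 at the same times. Gjb2 (connexin 26), a gap junction protein, read 695, 429, 632, 306 and 665 with EE and was blank in all 5 controls.

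Among the genes known to respond to estrogen in the uterus, 22 of 28 listed were tested, 14 rose, 4 fell and 4 did not pass, with a median difference of 0.48 against -0.049 over all genes. C3, S100g, Kap and Ccl11 were on this list. Inhbb, the activin beta B subunit, rose by 1.60 (SE 0.12): it read 252, 222, 382, 203 and 318 with EE against 58.3, 74.6, 57.5, 66.04 and 88.1. The lipocalin Lcn2 rose by 1.07 and the mucin Muc1 by 0.99. Clu (clusterin) fell by 1.42 (SE 0.12), the signalling ligand Wnt4 by 1.24 (SE 0.16) and the receptor-modifying protein Ramp3 by 0.72. Vegfa, the vascular endothelial growth factor and an early estrogen target, stood at 32.7, 43.2, 50.8, 46.5 and 47.4 with EE against 168, 133, 252, 132 and 196, a fall of 1.44 (SE 0.12, adjusted p = 1.13e-15). The progesterone receptor Pgr read 144, 123, 233, 158 and 182 against 124, 124, 152, 138 and 138. Its groups overlapped, and its difference of 0.24 (SE 0.11) did not pass (adjusted p = 0.0605). Ornithine decarboxylase Odc1, at 0.34 (adjusted p = 0.0504), and cyclin D1 (Ccnd1), at -0.14 (adjusted p = 0.141), did not pass either. Odc1 passed under 9 of 20 alternatives and Pgr under 4 of 20. Gjb2 was on the list too and was read only with EE.

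Steroid receptors and their coregulators mostly fell: of 11 tested, 6 fell, 1 rose and 4 did not pass. Esr1 itself read 86.7, 88.0, 89.5, 71.5 and 97.4 with EE against 68.7, 70.9, 60.2, 75.1 and 63.4. The groups overlapped through EE array 71 and control array 65, and the difference of 0.25 (SE 0.11) passed narrowly (adjusted p = 0.0432) and no longer passed under 8 of 19 alternatives. The glucocorticoid receptor Nr3c1 fell by 0.73 and the coactivator Ncoa1 by 0.85. The second estrogen receptor gene, Esr2, was blank on all 10 arrays. Of 17 tested immediate-early genes, which encode transcription factors induced within minutes, 3 rose, 5 fell and 9 did not pass. Neither share was above that of all genes tested, 24.1% rising and 33% falling. Fos read 36.1, 42.7, 78.8, 49.3 and 97.1 against 27.6, 22.6, 16.4, 13.1 and 13.9, a rise of 0.86 (SE 0.19), and Klf4 rose by 0.98. Egr1 moved the other way, from 267 ± 9.40 in controls to 155 ± 17.5 with EE (SD, n = 5 each), a fall of 0.69 (SE 0.15).

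The Igf genes changed in opposite directions. Igf1, the stromal growth factor, read 805, 857, 1044, 862 and 939 with EE against 374, 418, 327, 483 and 392, a rise of 1.12 (SE 0.091, 2.18-fold). Its receptor Igf1r fell from 210 ± 35.5 to 73.7 ± 12.8, by 1.20 (SE 0.11), and the related ligand Igf2 fell from 452 ± 37.5 to 166 ± 27.2, by 1.31 (SE 0.11; SD, n = 5 each). Igfbp3, the main carrier of Igf1 in blood and a local inhibitor of its action, read 200, 129, 147, 169 and 126 with EE against 812, 853, 635, 807 and 796. Every EE value lay below every control value, a fall of 2.14 (SE 0.12). Igfbp5 and Igfbp6 fell by 0.43 and 0.45, while Igfbp2 rose by 1.37 (SE 0.23) with overlapping groups. Over the list, 9 of 15 tested genes fell and 3 rose.

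Markers of simple epithelium rose as a group. Of 25 tested keratins, mucins, junction and secretory genes of luminal and glandular epithelium, 18 rose, 3 fell and 4 did not pass, with a median of 0.92. Krt8, a keratin of simple epithelia, read 1438, 1576, 1668, 1337 and 1628 with EE against 300.0, 375, 283, 287 and 272. The epithelial transcription factor Elf3 rose by 2.09 (SE 0.14), the stem cell marker Prom1 by 1.74 and the surface protein Cd24 by 1.80. Pigr, the receptor that carries antibodies of secretions across epithelium, rose by 2.07 (SE 0.13), from 54.1 ± 8.46 on 4 control arrays to 331 ± 87.4 on 5 EE arrays (SD). The homeobox gene Msx1 fell by 0.92. The epithelial adhesion genes Cdh1 and Epcam rose by less, 0.58 and 0.68.

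Stratified epithelium genes, which belong to the keratinised lining of vagina and lower tract in the estrogenised rat, behaved differently from array to array. Krt10, a keratin of differentiating layers, read 1587, 515, 1082, 24.1 and 889 with EE against 43.4, 35.5, 34.1, 36.6 and 30.3. Krt14, a keratin of basal layers, read 2548, 1185, 2058, 68.2 and 1965 against 66.6, 63.04, 177 and 144 on control arrays 62, 63, 65 and 66. Array 71 thus stood within or below the control range in both, while the other 4 EE arrays were all above every control. The same array was lowest for Krt6c, a keratin read only with EE, at 2840, 1874, 2561, 50.3 and 2164. Sprr1a reached 714 on array 71 and 1250 to 2052 on the other EE arrays. The desmosomal plaque gene Dsp rose by 1.61 (SE 0.41), with array 71 at 229 inside the control range of 129 to 276. Krt5, the partner keratin of Krt14, did not pass (0.83, SE 0.72), and its control values spread from 171 to 678. With all arrays 4 of 6 tested genes of this list rose and none fell, with a median of 2.18, and 13 of the 19 on the array were not tested. Without array 71 again 4 of 6 rose and the median was 2.46, Krt10 reaching 3.88 (SE 0.47) in place of 3.05 (SE 0.53) and Krt14 3.82 (SE 0.50) in place of 2.97 (SE 0.61). The sources used here do not say how much uterus, cervix or vagina each sample held, and the part of tissue sampling in these values was not tested.

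**Figure D2:**
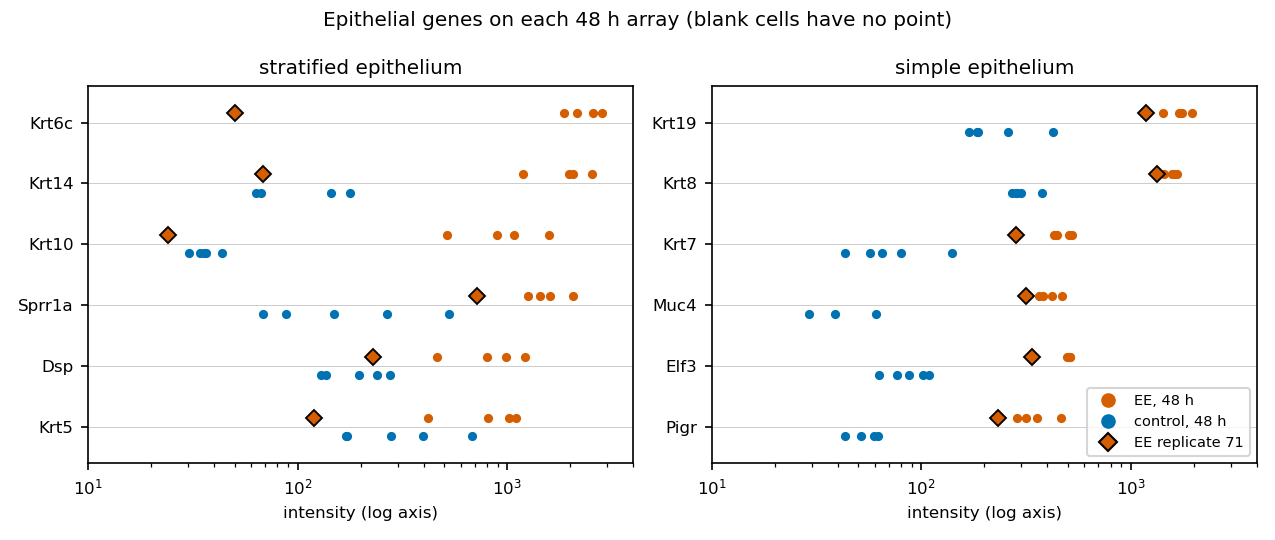
Intensity (log axis) of 6 stratified and 6 simple epithelium genes on each 48 h array, orange for EE, blue for control, with a diamond for EE replicate 71. In the left panel the diamond lies among or below the controls for Krt14, Krt10, Dsp and Krt5, and in the right panel it lies above all controls for all 6 genes.

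Cell division genes were higher with EE. All 12 tested mitosis genes rose, with a median of 1.71, and 9 further ones, among them Cdc20, Plk1, Ccnb1 and Birc5, were read on all 5 EE arrays and on no control. Mki67, the antigen of cycling cells, read 245, 215, 205, 317 and 217 with EE against 35.3, 26.98, 54.5 and 23.8 on 4 control arrays, a rise of 2.05 (SE 0.21, 4.14-fold). Cdk1, the kinase that drives entry into mitosis, rose from 56.1 ± 6.16 to 327 ± 40.03, by 2.04 (SE 0.16; SD, n = 5 each). Array 71, low in stratified epithelium genes, was the highest of the EE arrays for Mki67 and, at 266, for Top2a, which rose by 1.77 (SE 0.21). DNA replication genes rose by less, 14 of 18 with a median of 0.52 and none falling: the helicase subunit Mcm6 by 1.03 (SE 0.13) and the sliding clamp Pcna by 0.76 (SE 0.11). The regulators of the preceding G1 phase went the other way in 7 of 14 genes, with 3 rising. The cyclin Ccnd2 fell from 657 ± 56.04 to 285 ± 28.03, by 1.12 (SE 0.10), and the inhibitor Cdkn1c from 336 ± 31.6 to 167 ± 38.9, by 0.91 (SE 0.093; SD, n = 5 each). After median centring 5 of these 14 rose and 5 fell.

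Macrophage markers rose together. Of 11 tested, 10 passed higher and none lower, with a median of 1.0. Summed intensities over the list were 3732 to 4797 with EE against 1328 to 1864 in controls. These sums, here and below, run over all listed genes on the array, tested or not, and a blank cell adds nothing to them. Lysozyme (Lyz2) read 1837, 1860, 1890, 1468 and 1866 with EE against 543, 538, 436, 445 and 634, a rise of 1.73 (SE 0.15). Aif1, a calcium-binding protein of macrophages, rose from 40.1 ± 8.53 to 179 ± 33.8, by 1.56 (SE 0.13), and the growth factor receptor Csf1r from 112 ± 13.1 to 219 ± 11.6, by 0.81 (SE 0.086; SD, n = 5 each). The immunoglobulin receptor genes Fcgr2b and Fcgr3a were read only with EE. The chemokine receptors Ccr2 and Cx3cr1 of monocytes and macrophages were also read on all 5 EE arrays and no control, at 26.9 ± 5.43 and 48.1 ± 8.63 (SD, n = 5). No tested lymphocyte marker passed (4 tested). Coro1a of that list was read on all 5 EE arrays and on no control, at 124 ± 22.6 (SD, n = 5). Summed intensities over the lymphocyte list, Coro1a included, were 276 to 348 with EE against 147 to 199 in controls. Of the eosinophil and mast cell markers on the array 10 of 15 were blank throughout, and of 3 tested 1 fell and none rose. Their summed intensities were 42.7 to 121 with EE against 131 to 192 in controls. Blank cells add nothing to these low sums, and EE arrays had 37.2% blank cells against 34.9% on control arrays. The part of blank cells in this gap was not tested.

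Interferon-responsive genes rose in 18 of 20 cases, with a median of 0.89. Mx1, an antiviral GTPase, read 238, 328, 226, 214 and 224 with EE against 51.1, 39.3, 32.6, 26.7 and 39.1, a rise of 2.02 (SE 0.13). The transcription factor Irf7 rose by 1.63 (SE 0.11), from 157 ± 41.2 to 542 ± 67.7 (SD, n = 5 each). One gene of the list fell, the membrane protein Ifitm1, by 0.75 (SE 0.097). Genes that cut and load peptides for class I molecules also rose, among them the immunoproteasome subunits Psmb8 (1.52, SE 0.20) and Psmb9 (1.30), the activator subunit Psme2 (1.14), the class I chain RT1-S3 (1.31) and B2m (0.78). Rat class I chains are a family of near-identical copies, so the RT1-S3 value may hold signal of others. Some class II genes fell: RT1-Da by 0.97 (SE 0.15), RT1-Db1 by 0.92 (SE 0.15) and the invariant chain Cd74 by 0.79 (SE 0.17), each with groups that did not overlap. The class II genes RT1-DMa and RT1-DMb were not among the falls. Both had a higher EE effect at 48 h than at 24 h and at 28 h. The antigen presentation list had 11 rises among 15 tested genes and 3 falls, those of RT1-Da, RT1-Db1 and Cd74. Only 1 tested gene of the list did not pass, so RT1-DMa, RT1-DMb or both were among the rises. Macrophage markers rose on the same arrays, and their part in these lists was not tested.

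In the complement list 7 of 16 tested genes rose and 4 fell. Next to C3, its inhibitor Cd55 (decay-accelerating factor) read 364, 457, 749, 147 and 677 with EE against 84.1, 86.4, 73.96, 81.01 and 74.9, a rise of 2.03 (SE 0.21). Serping1, the C1 inhibitor, fell from 594 ± 54.1 to 239 ± 20.5, by 1.21 (SE 0.11; SD, n = 5 each). Of the C1q subunits, made largely by macrophages, C1qb rose by 0.66 (SE 0.11), while C1qa (0.04) and C1qc (0.08) did not pass. Among chemokines, Ccl6 rose by 1.68, Cxcl14 by 1.62 and the interferon-induced Cxcl10 by 1.25 beside Ccl11. Of the 12 tested these 4 rose and 3 fell, the latter a share below the 33% of all genes. A further 9 chemokine and receptor genes of the list, the neutrophil attractants Cxcl1, Cxcl2 and Cxcl3 among them, were blank on all 10 arrays.

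Cholesterol synthesis stood out among the metabolic lists, with 15 of 17 tested genes higher, none lower and a median of 0.77. Fdps, which makes farnesyl diphosphate, read 433, 789, 875, 515 and 780 with EE against 144, 188, 119, 152 and 119, a rise of 1.99 (SE 0.16). Idi1, the step before it, rose from 138 ± 50.2 to 579 ± 129, by 1.88 (SE 0.16; SD, n = 5 each). The sterol enzyme Cyp51 rose by 1.43 and squalene epoxidase Sqle by 1.38 (SE 0.22). Glycolysis genes rose in 10 of 15 cases: lactate dehydrogenase Ldha by 1.29 (SE 0.089), Pgk1 by 1.08 (SE 0.095), and Tpi1 and Eno1 by 0.95 each, whereas Ldhb fell by 0.55. Proteasome subunits rose in 20 of 24 cases by small amounts, 0.65 at most (Psma2), with Psma3 falling by 0.29. Respiratory chain and ATP synthase subunits rose in 22 of 34 and fell in none, with a median of 0.22, but under quantile normalization 10 rose and 3 fell. Fatty acid and lipid synthesis genes were divided, 8 rising and 4 falling of 17. The falls were led by Thrsp, a lipogenic regulator of fat cells, at -1.48 (SE 0.23), and included Fasn at -0.56.

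The machinery of translation did not follow one direction. Of 20 aminoacyl-tRNA synthetase genes tested 10 rose, by 0.45 (Kars1) at most, and none fell. Chaperones and folding enzymes of the endoplasmic reticulum rose in 15 of 29 cases and fell in 4, led by the translocon subunit Sec61b (0.97), Sdf2l1 (0.90) and Ssr1 (0.77), with calnexin (Canx) at -0.39 through the probe set used and at 0.56 and 0.21 through its other probe sets. Ribosome biogenesis genes fell in 10 of 27 cases, a share near the 33% of all genes, and rose in 2. Nolc1, a nucleolar scaffold protein, fell from 197 ± 12.6 to 99.6 ± 12.6, by 0.81 (SE 0.076), and the nucleolar GTPase Gnl3 from 164 ± 21.1 to 106 ± 7.01, by 0.50 (SE 0.074; SD, n = 5 each). Nhp2 rose by 0.63. Another probe set of Nolc1 did not pass (-0.23, adjusted p = 0.0539). With centred arrays the list had 7 falls and 4 rises. For cytosolic ribosomal proteins 7 of 39 fell and none rose, with a median of -0.05, which is that of all genes, and this count went to 1 fall and 1 rise with centred arrays and to 18 falls and 1 rise after quantile normalization.

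**Figure D3:**
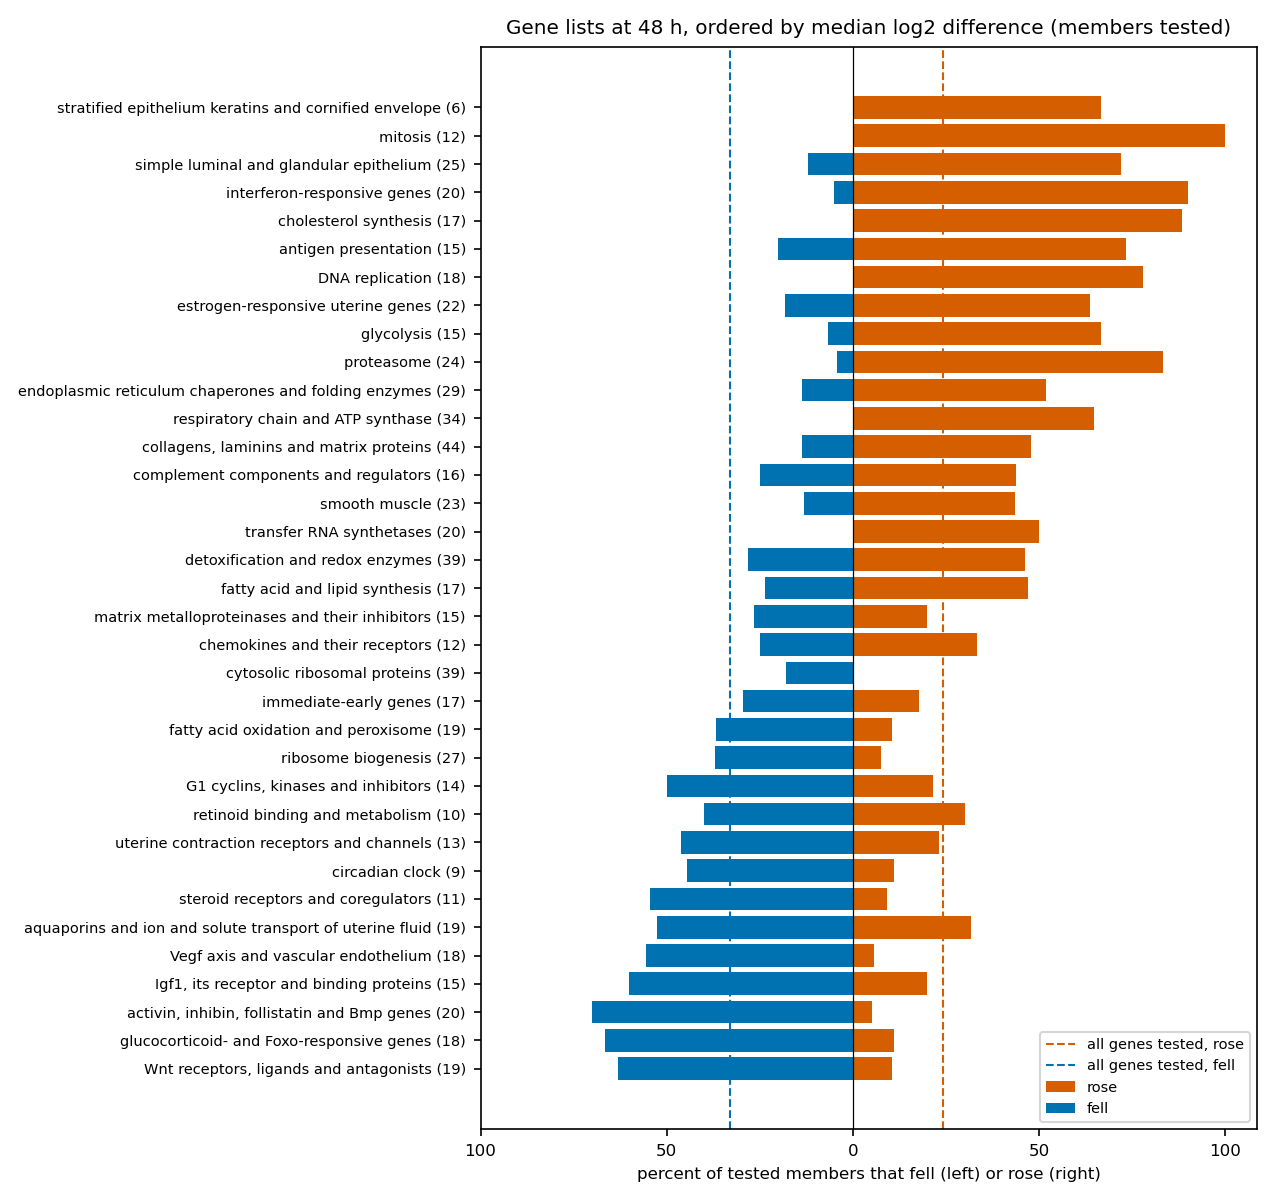
Percent of the tested members of each gene list that rose (orange, to the right) or fell (blue, to the left) at 48 h, with the number tested in brackets and dashed lines at the shares of all genes tested, 24.1% rising and 33% falling. Lists are ordered by median difference, with stratified epithelium, mitosis and simple epithelium at the top and Wnt, glucocorticoid- and Foxo-responsive and activin genes at the bottom.

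The 15 largest falls, chosen by the same rule as the rises, ran from -2.61 for Them5 to -1.46 for Gfra2 on the log2 scale. Cpxm1, a secreted carboxypeptidase-like protein, read 120, 129, 86.3, 177 and 68.97 with EE against 771, 868, 680, 722 and 889, a fall of 2.52 (SE 0.16). Enpp2 (autotaxin), which makes lysophosphatidic acid, read 55.7, 54.1, 45.6, 73.4 and 55.5 against 365, 374, 372, 332 and 344, a fall of 2.16 (SE 0.12). Them5, a mitochondrial thioesterase, had 3 EE values, of 42.3, 31.5 and 37.2 on arrays 67, 68 and 71, against 332 to 456 in controls, a fall of 2.61 (SE 0.19). Further falls were seen in the matrix protein Tgfbi (-1.80, SE 0.12), the sodium channel Scn7a (-1.93, SE 0.32), the sulfotransferase Sult1a1 (-1.76), the neuropeptide-processing enzyme Cpe (-1.68), the lipid carrier Apoe (-1.62, SE 0.10), the growth-restraining proteoglycan Gpc3 (-1.56), the methyltransferase Inmt (-1.51), the neurotrophic receptor Gfra2 (-1.46), the lectin Asgr2 (-1.97) and Mamdc2 (-1.69). Of the genes read only in controls, the 4 with the highest control intensities were Penk, the precursor of enkephalins, at 288 ± 29.1, the metallothionein Mt3 at 270 ± 56.8, C1qtnf5 at 199 ± 22.4 and Xylt2 at 164 ± 15 (SD, n = 5 each).

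Most tested members of the Wnt, activin and Bmp, and vascular lists fell. Of 19 tested Wnt genes 12 fell and 2 rose, with a median of -0.44. Wnt4, needed for uterine stroma, read 58.7, 90.8, 112, 57.2 and 135 with EE against 230, 295, 220, 276 and 221. The Wnt target Axin2 fell from 151 ± 22.6 to 51.7 ± 5.95, by 1.13 (SE 0.11), and the Wnt inhibitor Sfrp1 from 248 ± 14.9 to 99.9 ± 14.5, by 1.10 (SE 0.079; SD, n = 5 each). Another Wnt inhibitor, Sfrp4, rose by 1.01 (SE 0.11), and the ligand Wnt5a by 0.47. In the activin and Bmp list 14 of 20 fell and Inhbb was the one rise. Follistatin (Fst), which binds and neutralises activins, read 47.4, 46.8, 33.4, 48.6 and 41.8 against 176, 156, 189, 194 and 169, a fall of 1.49 (SE 0.10). The Bmp-responsive inhibitors of differentiation Id1 and Id3 fell by 0.999 (SE 0.094) and 1.10 (SE 0.10). Vascular genes fell in 10 of 18 cases, with 1 rise (adrenomedullin, Adm, 0.84): the Vegf receptor Kdr went from 208 ± 8.43 to 96.0 ± 9.49, by 0.92 (SE 0.11; SD, n = 5 each), and Esam and Tie1 fell by 0.63 and 0.61. The endothelial marker Pecam1 did not pass (-0.23).

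Markers of fat and nerve were lower on EE arrays. Of 6 tested adipocyte markers 5 fell and none rose, with summed intensities over the list of 375 to 834 with EE against 1054 to 4044 in controls. Control array 63 was the highest in these genes, with carbonic anhydrase Car3 at 871 against 98.3 to 447 on the other 4 controls. Without it 3 of 6 fell and the median went from -1.02 to -0.71. Thrsp was also highest on that array, at 315 against 79.2 to 188 on the other controls, and without it Thrsp fell by 1.24 in place of 1.48. Of 9 tested nerve and glia markers 6 fell and none rose, among them Prph and Stmn2 by 1.06 and 1.19 with overlapping groups. The part of fat or nerve in the other falls was not tested.

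Matrix genes were mostly higher or not past the threshold. Of 44 tested collagens, laminins and matrix proteins 21 rose and 6 fell, and after quantile normalization 16 rose and 10 fell. The fibril-associated collagen Col12a1 rose by 0.99 (SE 0.14), the small proteoglycan Ogn by 0.98 (SE 0.12) and fibronectin Fn1 by 0.70. The abundant fibrillar collagens Col1a1 (0.01), Col1a2 (0.11) and Col3a1 (-0.06) did not pass through the probe sets used, but another probe set of Col1a1 passed at 0.23 and another of Col1a2 at 0.38. Postn (periostin) fell from 1047 ± 89.4 to 440 ± 113, by 1.23 (SE 0.15), and laminin Lama2 by 1.06 (SE 0.15; SD, n = 5 each). Among metalloproteinases and their inhibitors 3 of 15 rose and 4 fell, shares below the 24.1% and 33% of all genes. With centred arrays 5 rose and 2 fell. The inhibitors went apart: Timp1 read 623, 616, 614, 548 and 646 with EE against 265, 253, 199, 243 and 208, a rise of 1.28 (SE 0.080), and Timp3 fell from 1349 ± 259 to 487 ± 30.4, by 1.40 (SE 0.091).

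Smooth muscle genes rose in 10 of 23 cases and fell in 3, and after quantile normalization 8 rose and 5 fell. The smooth muscle actin Actg2 rose by 0.85 (SE 0.11) and desmin (Des) by 0.74 (SE 0.12), whereas Acta2 (0.03) and Myh11 (-0.05) did not pass. Acta1, the skeletal alpha-actin, rose by 1.35 (SE 0.11), from 746 ± 153 to 1926 ± 228 (SD, n = 5 each), while 11 of 20 skeletal muscle markers on the array, the myosins Myh2, Myh4 and Myh7 among them, were blank on all 10 arrays. Of the 7 that could be tested, Acta1 included, 4 rose and none fell, with summed intensities over the list of 2680 to 3260 with EE against 1335 to 2070 in controls, and 3 of 7 had a higher EE effect than at 24 h. The part of skeletal muscle in these values was not tested. Of 13 tested contraction genes 3 rose and 6 fell, and with centred arrays 3 fell. The gap junction gene Gja1 (connexin 43) read 746, 583, 866, 491 and 786 with EE against 346, 328, 295, 306 and 332, a rise of 1.02 (SE 0.10), though another probe set of Gja1 did not pass (0.066, adjusted p = 0.452). The angiotensin receptor Agtr2 rose by 1.12 (SE 0.13). The oxytocin receptor gene Oxtr was blank on all 10 arrays. The potassium channel Kcnma1 fell by 0.78 (SE 0.094).

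Among genes of uterine fluid transport 6 of 19 rose, led by S100g, and 10 fell. The anion exchanger Slc26a4 rose by 0.90, and the sodium bicarbonate transporter Slc4a4 fell by 0.80. Antioxidant and detoxification genes moved both ways, 18 rising and 11 falling of 39. The epithelial glutathione peroxidase Gpx2 read 375, 586, 574, 316 and 557 with EE against 99.5, 115, 68.2, 112 and 84.2, a rise of 2.00 (SE 0.15), and Gpx1 rose by 1.27. Glutathione transferases Gstm5 and Gsta4 fell by 1.09 and 1.04. Glucocorticoid- and Foxo-responsive genes fell in 12 of 18 cases, led by the transcription factor Klf15, which fell by 1.22 (SE 0.089). In the clock list Bhlhe40 rose by 1.06 (SE 0.19) and 4 of 9 fell, Nr1d2 by 0.87. Crabp2, a retinoic acid binding protein, rose by 0.999 (SE 0.24) with groups that overlapped through array 71.

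The EE effect at 48 h was then tested against that at other times, as the difference of the EE-minus-control differences. Every time had its own controls, and the 3 comparisons share the 48 h arrays. A higher value or EE effect here means a larger signed difference, so it includes falls that were smaller at 48 h. Counts of genes with a higher or lower EE effect are of those that passed. Against 24 h, 959 of 6819 genes tested at both times differed (14.1%), 467 with a higher value at 48 h (6.85%) and 492 with a lower one (7.22%). Against 28 h it was 1812 of 6754 (26.8%), 867 higher (12.8%) and 945 lower (14%). Against 72 h it was 34 of 6679 (0.509%), 19 higher (0.284%) and 15 lower (0.225%), a split that became 12 higher and 35 lower with centred arrays. A fit of only the 4 groups compared gave 9 genes, 1 higher and 8 lower, of which 7 were among the 34. Without EE array 71 this last count was 22, and without EE array 69 it was 60. Many of the differing genes had an effect of smaller size at 48 h. Against 24 h that held for 188 of the 467 higher genes and 326 of the 492 lower ones. Against 28 h it was 537 of 867 and 621 of 945, and against 72 h 15 of 19 and 11 of 15.

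**Figure D4:**
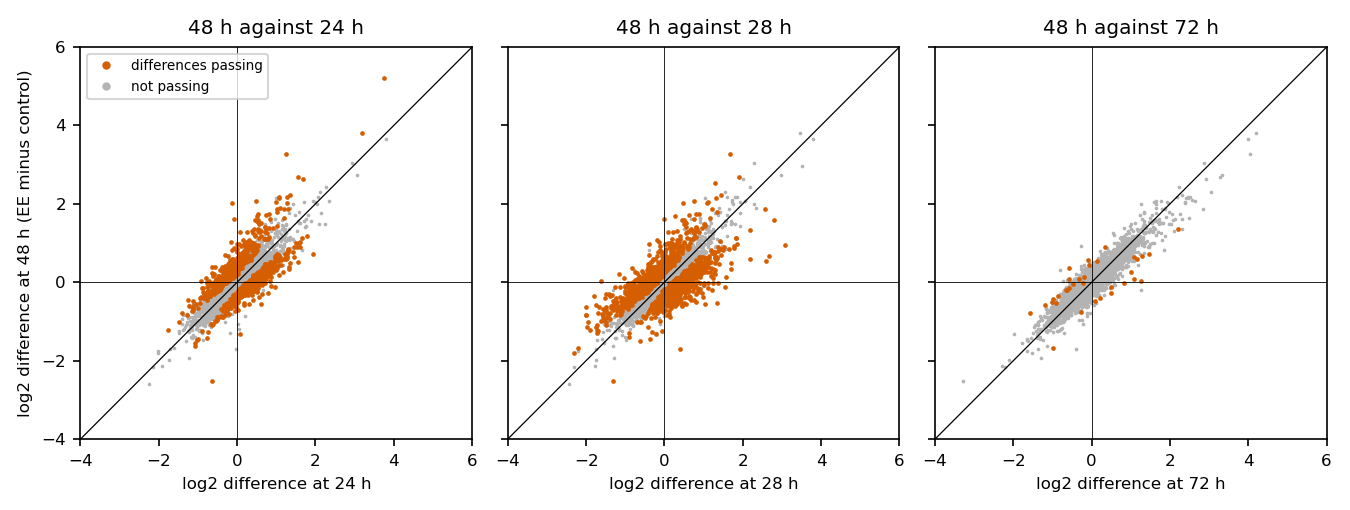
Difference between EE and control on the log2 scale at 48 h (vertical axis) against that at 24, 28 or 72 h (horizontal axis), with 1 point per gene, orange where the 2 effects differed at an adjusted p under 0.05, and a line where they would be equal. Orange points number 959, 1812 and 34.

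The macrophage markers separated 48 h from the earlier times. All 11 tested had a higher EE effect at 48 h than at 24 h and than at 28 h, and 2 (C1qa and C1qb) had a lower one than at 72 h. The lysosomal protease Lgmn differed by -0.15 on the log2 scale at 24 h, 1.01 at 48 h and 1.04 at 72 h, so that its effect was 1.16 higher at 48 h than at 24 h (SE 0.14). Csf1r went from -0.13 at 24 h to 0.81 at 48 h, a difference of 0.94 (SE 0.12), and Klhl6, which is not on the marker list, from 0.24 to 1.27, a difference of 1.03 (SE 0.13). The C1q genes lagged: C1qa stood at -0.56 at 28 h, 0.04 at 48 h and 1.26 at 72 h, its 48 h effect 1.22 below that at 72 h (SE 0.16), and C1qc differed from 72 h by -1.002 (SE 0.16). Chemokine Ccl11 rose from 1.24 at 24 h to 3.26 at 48 h, a difference of 2.02 (SE 0.24). Of the 12 tested chemokine genes 6 passed with a higher effect at 48 h than at 24 h and none passed with a lower one.

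Simple epithelium and matrix genes also included members with a higher EE effect at 48 h than on the day before. Of 23 tested simple epithelium genes 10 had a higher EE effect at 48 h than at 24 h and none a lower one, and against 28 h it was 12 of 25 and none. Pigr differed by 0.47 at 24 h and 2.07 at 48 h, a difference of 1.60 (SE 0.18). In the stratified epithelium list no gene passed the test of a difference, of 5 tested against 24 h and 6 against 28 h. The median differences of this list were -0.31 and 0.85, and Sprr1a stood at 3.06 at 24 h and 2.75 at 48 h. Among 44 matrix genes 13 had a higher EE effect than at 24 h and 17 than at 28 h, and none passed as lower. In the complement list 9 of 16 and 11 of 14 had a higher EE effect. Serping1 was among them, although it fell by 1.21 at 48 h. Cpxm1 had fallen by 0.65 at 24 h and by 2.52 at 48 h, a difference of -1.87 (SE 0.23).

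Several lists held genes with a lower EE effect at 48 h than at the earlier times. Ribosome biogenesis genes had a lower EE effect at 48 h in 12 of 27 cases against 24 h and in 21 of 27 against 28 h, and a higher one in none. Gnl3 stood at 0.80 at 28 h and -0.50 at 48 h, a difference of -1.30 (SE 0.10), and the iron-sulfur assembly protein Ciapin1 went from 0.97 to -0.29, a difference of -1.25 (SE 0.11). Endoplasmic reticulum chaperones were lower in 13 of 29 cases against each of 24 h and 28 h, and DNA replication genes in 9 of 18 against 24 h. Against 28 h it was 3 of 18 DNA replication genes, a share near the 14% of all genes. No tested mitosis gene passed the test of a difference between 48 h and 24, 28 or 72 h. Proteasome genes were lower in 9 of 24 and 7 of 24 cases.

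Several genes with a large early response stood high at 28 h and lower at 24 and 48 h. The small G protein Rasd1 had effects of 1.004, 3.07 and 0.95 at 24, 28 and 48 h, the last 2.12 below that at 28 h (SE 0.15). The stress-response gene Gadd45g had effects of 0.31, 2.59 and 0.55, a difference of -2.05 between 48 and 28 h (SE 0.17), and the phosphate transporter Slc20a1 of 0.08, 1.21 and -0.20, a difference of -1.41 (SE 0.13). The transcriptional coregulator Cited2 had the reverse order, with -0.25, -1.15 and 0.21, a difference of 1.37 (SE 0.11). Of the immediate-early genes 10 of 17 had a lower effect at 48 h than at 28 h, and of the estrogen-responsive genes 10 of 21, Pgr, Igf1, Vegfa and Inhbb among them. The sources used here do not say when the animals were dosed before each time. Beside C1qa and C1qc, the smallest adjusted p-values against 72 h were those of the protease Htra3 (difference -0.61, SE 0.098), the polyamine enzyme Sat1 (-0.75, SE 0.13), the matrix protein Ccn3 (-0.83, SE 0.15) and the potassium channel subunit Dpp6 (0.78, SE 0.14).

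**Figure D5:**
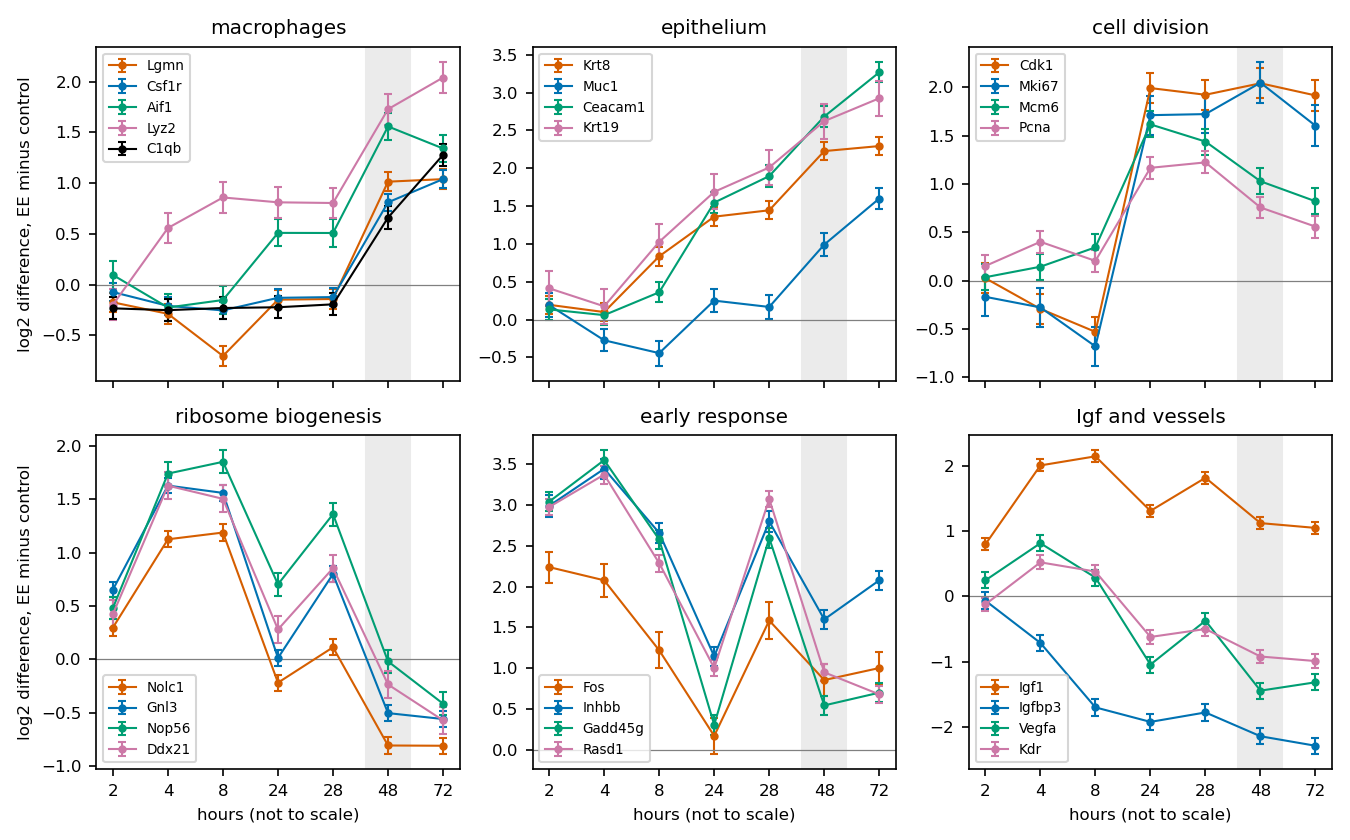
EE minus control on the log2 scale with its SE at each of the 7 times, for genes of 6 kinds, with the 48 h time shaded and hours not drawn to scale. Macrophage and epithelial genes are higher at 48 h than at 24 h, and Rasd1 and Gadd45g stand at 3.07 and 2.59 at 28 h and 0.95 and 0.55 at 48 h.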

How the data were processed

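Total RNA of each uterus sample was labelled with biotin and hybridised to an Affymetrix RAE230A array, per the labels' protocols. The deposited values are intensity on a linear scale per probe set, with blank cells. How the authors summarised, scaled or blanked them is not given in the sources used here. Blank cells were left as missing in the tests and added nothing to summed intensities. Of 15923 probe sets, 12783 named 1 gene in the platform annotation, 312 several, 2771 none and 57 were array controls. Each of 10411 genes was read through its probe set with the highest mean over the uterus arrays. Values were taken as log2(intensity + 30.4), the added number being the 10th percentile of all values, so changes of dim genes are understated. Genes with at least 3 values in each group were tested with limma 3.58.1 (R 4.3.3) in a model of all 14 uterus groups, 2-sided, with Benjamini-Hochberg adjustment over all genes tested. Differences between times were tested as interaction terms. Array measures were compared by exact permutation. On simulated data for the 48 h comparison with 6968 genes, of which 6768 were left unchanged, the test recovered 93.9% of log2 changes of 0.5, 97.0% of 1 and 100% of 2. The simulated noise was independent between genes and arrays and had the same spread in every group. It held no array effects, so these shares do not give the recovery in the real data.

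The arrays and the 35 gene lists and 16 cell type lists were chosen with earlier results of these data known. Genes were named by rule: the 15 largest rises and falls that passed, did not overlap and lay above the median level, up to 4 genes per list and 6 per difference with the smallest adjusted p, the brightest genes read in 1 group only, and 18 genes chosen by name. The text names 130 genes under this rule and 76 that were chosen after their values were seen. List symbols were matched through synonyms, and 4 matches to a different gene were left out. Alternatives varied scaling, the added number, blank cells, the filter, probe sets, the variance model and the arrays; choosing the probe set with blanks as 0, and lists without EE array 71 or control array 63, were added after seeing the data.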

Additional observations from a re-analysis of the deposited data

Results flagged for a closer look

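Among 365 groups of 4 or 5 values from the genes named above, 22 held an array far from the rest by Dixon's test, which marks about 1 group in 20 by chance alone. EE array 71 accounted for 13 of them. It was the lowest EE array for C3 at 1486, S100g at 1047, Cuzd1 at 822, Mmp7 at 478, Elf3 at 339, Slpi at 136, Muc1 at 124, Lyz2 at 1468, Crabp2 at 89.7, Krt14 at 68.2 and Krt6c at 50.3. It was the highest EE array for Gsta4 at 146 and Thrsp at 89.4. EE array 68 was highest for Mx1 at 328 and lowest for Wnt5a at 75.8.

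Of the control arrays, 61 was highest for Aif1 at 54.96 and lowest for Axin2 at 112. Array 62 was highest for Aldh1a2 at 538, array 63 highest for Acadl at 333 and lowest for Igfbp3 at 635, array 65 highest for Sfrp1 at 273 and array 66 highest for Igfbp6 at 1441. The 3' to 5' log2 difference of Gapdh was lowest among EE arrays on array 72, at 0.237.

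Differences between times, as the EE effect at 48 h minus that at the other time, are listed for the 6 genes with the smallest adjusted p in each interaction test. That all of them passed follows from this choice. Against 24 h they were 2.02 for Ccl11, 1.60 for Pigr, 1.16 for Lgmn, 1.03 for Klhl6, 0.94 for Csf1r and -1.87 for Cpxm1. Against 28 h they were 1.37 for Cited2, -1.25 for Ciapin1, -1.30 for Gnl3, -1.41 for Slc20a1, -2.05 for Gadd45g and -2.12 for Rasd1. Against 72 h they were 0.78 for Dpp6, -0.61 for Htra3, -0.75 for Sat1, -0.83 for Ccn3, -1.002 for C1qc and -1.22 for C1qa.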

How the results depend on the processing

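No paired analysis was possible because the EE and control arrays share no replicate number. Of 3480 values of 176 named genes under alternative settings, 3421 kept their direction and their side of the threshold, 15 lost the threshold, 23 gained it and 21 changed sign. The sign changed only for genes that had not passed: when 1 array was left out, C1qa ran from -0.033 to 0.148, Ccn3 from -0.104 to 0.073, Col1a1 from -0.045 to 0.086, Acta2 from -0.013 to 0.091, Col3a1 from -0.108 to 0.033 and Myh11 from -0.118 to 0.023. With centred arrays Ccn3 was at 0.046 and Myh11 at 0.015, and Col3a1 at 48 h was 0.00621, and after quantile normalization Acta2 was at -0.086. Other probe sets read 0.032 for Ccnd1 and 0.56 and 0.21 for Canx, which had passed as lower. Of 34 values from other probe sets 5 lost the threshold, those of Cited2, Gja1, Igfbp5, Nolc1 and Nr1d2, and 2 gained it, those of Col1a1 and Col1a2. The count at 48 h was 2391 for genes above the median level, which tests fewer genes, and 254 at 2-fold or more. Leaving out each array gave 3717 to 3862 genes at 48 h, 782 to 1065 against 24 h, 1595 to 1801 against 28 h and 22 to 60 against 72 h. Genes above the median level numbered 1162 against 28 h. Against 72 h a fit of only the groups compared gave 9 genes and blank cells set to the lowest value of their array gave 66, and the cause was not tested. Genes read in 1 group only numbered 137, and 142 to 196 when 1 array was left out. This count cannot fall with fewer arrays, because the rule then asks less, so the range does not show how stable these genes are. With 1 array left out, the blank cell difference ran from 1.83 to 2.87 percentage points and that of the median intensity from -3.70 to -2.75, each crossing the threshold in some cases. Low intensity limits what could be tested: probe sets with some blank cells had a median intensity of 36.96, against 119 for those read on all 10 arrays.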

Other observations

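Fatty acid oxidation and peroxisome genes fell in 7 of 19 tested cases, near the 33% of all genes that fell, and rose in 2. Ehhadh of this list was read on all 5 EE arrays and on no control, at 208 ± 50.1 (SD, n = 5). The thiolase Acaa2 fell by 0.63 and the isomerase Ech1 by 0.56, while the acyl-CoA dehydrogenases Acadm and Acadl rose by 0.35 and 0.36. Of 10 tested retinoid genes 3 rose and 4 fell, shares near the 24.1% and 33% of all genes. Among them were the retinoic acid synthesis enzyme Aldh1a2, higher by 0.47, and the retinaldehyde reductase Dhrs3, lower by 0.58.

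Of 5 tested blood and red cell genes 2 rose and 3 fell. Of 12 tested uterine stroma markers 6 fell, 1 rose and 5 did not pass, the homeobox genes Hoxa10 and Hoxa11 falling by 0.68 and 0.37. Of 6 tested endothelium markers 3 fell and none rose. Of 4 tested mesothelium markers 2 rose and 1, Wt1, fell by 0.70, and of 4 tested ovary and oviduct markers 1 fell and none rose. The protease inhibitor Slpi of mucosal secretions rose by 1.54. No urothelium marker could be tested, and 1 neutrophil marker, Lcn2, could.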
